A study of Mus musculus with 6 samples.

Results

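Mouse chromosome 2 carried a level shift in a single tumor library, and the 793 genes described here are its expressed protein-coding genes. They were chosen as the protein-coding genes whose first chromosome entry in the count files is 2 (GRCm38) and whose mean log2 CPM over the 6 libraries lies over 3. CPM are counts per 1000000 counts, with library sizes scaled by TMM (trimmed mean of M values) normalization. This kept 793 of 1843 protein-coding genes of the chromosome, out of 9991 protein-coding genes past the same minimum over all chromosomes. The chromosome was picked because its genes lay higher in the library fx2, so every value of fx2 against wt/wt below describes the choice and carries no test. Just inside the minimum were Rbm38, Bend7 and Stard9 (mean log2 CPM 3.01, 3.03 and 3.05), with fx2 values of 0.33, 0.48 and 1.08 log2 above the wt/wt mean. Just outside were Zfp931, Lmo2 and Adamtsl2 (3.00, 2.96 and 2.96), with fx2 values of 0.14, 0.42 and -0.23.

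RNA was sequenced from tumors of NIC+ mice that were either CdGAP wt/wt (3 libraries, called wt1, wt2 and wt3) or CdGAP fx/fx (3 libraries, called fx1, fx2 and fx3). Both groups share the NIC transgene, whose mammary tumor virus (MMTV) promoter expresses activated ErbB2 (Neu) and Cre recombinase from a single transcript in mammary epithelial cells. CdGAP is the product of Arhgap31, a GTPase-activating protein for Cdc42 and Rac1, and the fx allele carries sites that Cre can recombine, so cells that lack Cre keep the gene. Age and strain are not given in the sources used here, and the labels name no animals, so each p-value covers only the spread among these 6 samples, which may be technical.

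As background, each autosome is normally present in a pair of copies, and tumors can gain or lose copies of a chromosome or of part of one. RNA levels often follow the number of gene copies, while single genes can depart from it through their own regulation. RNA counts do not measure DNA copies, so the gene levels below give RNA only.

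The promoters of 6 members show the kinds of gene that the results turn on. Each is the 250 bases before the transcription start, from RefSeq (GRCm38.p6), written 5′ to 3′ on the gene's own strand with CG dinucleotides in capitals. Atf2 (chr2:73892640-73892889, minus strand), a bZIP transcription factor, and Golga1 (chr2:39065542-39065791, minus strand), a Golgi coiled-coil protein, are shown because both followed the chromosome closely in fx2.
Atf2: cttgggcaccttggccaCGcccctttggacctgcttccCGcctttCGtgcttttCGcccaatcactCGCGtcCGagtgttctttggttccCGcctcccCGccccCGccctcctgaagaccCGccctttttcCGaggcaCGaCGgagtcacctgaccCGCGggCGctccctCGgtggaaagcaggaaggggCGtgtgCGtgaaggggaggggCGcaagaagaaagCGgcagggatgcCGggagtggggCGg
Golga1: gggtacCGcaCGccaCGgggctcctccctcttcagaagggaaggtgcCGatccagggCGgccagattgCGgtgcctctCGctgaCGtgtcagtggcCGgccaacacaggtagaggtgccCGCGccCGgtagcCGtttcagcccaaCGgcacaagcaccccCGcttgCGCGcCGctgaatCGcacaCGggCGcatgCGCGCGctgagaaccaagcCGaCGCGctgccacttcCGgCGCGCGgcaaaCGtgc
Rnd3 (chr2:51149112-51149361, minus strand), an atypical small GTPase that binds GTP constitutively, and Col5a1 (chr2:27886175-27886424, plus strand), a fibrillar collagen chain, are shown because both lay far above it.
Rnd3: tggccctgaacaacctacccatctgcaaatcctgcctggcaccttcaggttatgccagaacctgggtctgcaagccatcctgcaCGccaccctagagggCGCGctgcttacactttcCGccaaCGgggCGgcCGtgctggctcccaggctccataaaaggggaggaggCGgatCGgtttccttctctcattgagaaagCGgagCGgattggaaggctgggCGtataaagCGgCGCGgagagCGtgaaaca
Col5a1: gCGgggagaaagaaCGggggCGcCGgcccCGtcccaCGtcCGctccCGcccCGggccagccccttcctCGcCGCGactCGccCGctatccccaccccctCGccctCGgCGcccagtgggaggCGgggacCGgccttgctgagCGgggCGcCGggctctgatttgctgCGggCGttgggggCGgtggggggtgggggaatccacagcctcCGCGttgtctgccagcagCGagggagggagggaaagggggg
Mtln (chr2:127792489-127792738, minus strand), a mitochondrial micropeptide, and Pnpla7 (chr2:24975783-24976032, plus strand), a lysophospholipase, are shown because fx2 was the lowest of all 6 libraries for them.
Mtln: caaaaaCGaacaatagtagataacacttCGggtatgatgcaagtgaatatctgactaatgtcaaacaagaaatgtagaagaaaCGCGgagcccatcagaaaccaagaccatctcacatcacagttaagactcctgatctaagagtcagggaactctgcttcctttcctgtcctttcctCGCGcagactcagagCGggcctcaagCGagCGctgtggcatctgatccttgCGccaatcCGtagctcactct
Pnpla7: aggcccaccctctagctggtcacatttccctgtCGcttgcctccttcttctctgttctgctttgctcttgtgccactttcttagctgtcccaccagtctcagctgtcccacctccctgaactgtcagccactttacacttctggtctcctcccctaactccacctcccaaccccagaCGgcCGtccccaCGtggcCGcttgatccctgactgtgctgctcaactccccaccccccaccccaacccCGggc
These windows held 24, 32, 16, 28, 11 and 6 CG dinucleotides in the order printed, a property taken up again with the genes that escaped the shift.

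Libraries held between 36732137 (fx2) and 53606276 (fx1) counts. Mammary epithelial markers, such as Epcam, Krt8 and Krt18, were measured for 10 of 10 genes and summed to between 6060 and 8152 CPM in wt/wt and between 7194 and 8736 CPM in fx/fx. For Arhgap31, wt1, wt2 and wt3 held 664, 433 and 549.8 CPM, and fx1, fx2 and fx3 held 156, 44.1 and 116 CPM, so every fx/fx library was below every wt/wt library. All counts of chromosome 2 genes made up 8.05%, 7.75% and 7.91% of the counts in wt1, wt2 and wt3, and 8.40%, 10.7% and 8.14% in fx1, fx2 and fx3.

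In fx2 the median member lay 0.43 above the wt/wt mean on the log2 CPM scale, a 1.34-fold level. The same median was 0.01, -0.09 and 0.08 in wt1, wt2 and wt3, and 0.06 and 0.08 in fx1 and fx3. The increase was thus in 1 of the 3 fx/fx libraries, and the other 5 lay within 0.09 of the wt/wt mean. On the 19 other chromosomes the fx2 medians ran from -0.16 (chromosome 14) to 0.22 (chromosome 1), with a middle value of -0.08. Set against all genes of other chromosomes, whose median in fx2 was -0.07, chromosome 2 stood 0.49 higher, a 1.41-fold difference. In fx1 and fx3 this difference was 0.08 and 0.03. Other chromosomes departed in other libraries, with medians of -0.70 and -0.82 for chromosome 4 in fx1 and fx3. In fx1 the median was -0.61 for chromosome 10 and -0.38 for chromosome 11, and chromosome 1 had 0.36 and 0.53 in fx1 and fx3. In fx2 the medians of chromosomes 4 and 10 were -0.12 and -0.06. The wt/wt libraries were not level either, with chromosome 1 at -0.32 in wt2 and 0.17 in wt3. Chromosome 14 stood at 0.24 in wt2 and -0.15 in wt1. The fx2 values of chromosomes 1 and 14 are set against a mean that includes these libraries.

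**Figure D1:**
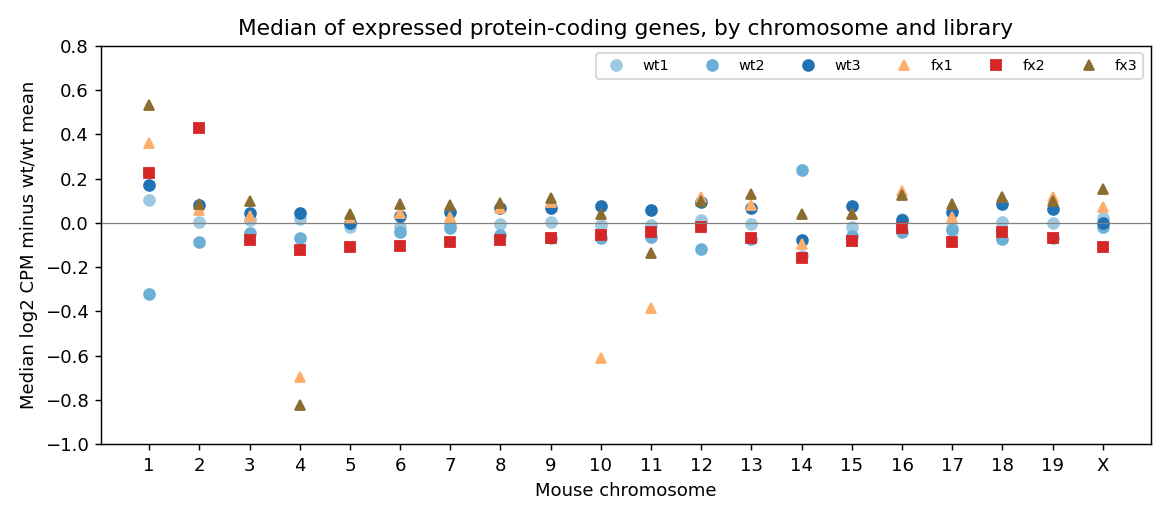
Median log2 CPM minus the wt/wt mean (vertical axis) over expressed protein-coding genes of each mouse chromosome (horizontal axis), with 1 symbol per library. Chromosome 2 lies at 0.43 in fx2 and within 0.09 of 0 in the other 5 libraries.

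The shift reached most members and left a spread over genes like that of other chromosomes. In fx2, 720 of 793 members (90.8%) lay above the wt/wt mean, whereas on other chromosomes between 29.5% (chromosome 14) and 68.6% (chromosome 1) did. fx2 was the highest of the 6 libraries for 467 members (58.9%), against 11.8% of all expressed protein-coding genes. It was the lowest for 12 members (1.51%, against 18.7% of all such genes). These counts restate the choice of the chromosome. The quartiles of the members in fx2 were 0.23 and 0.62, a range of 0.39, close to the 0.42 of genes on other chromosomes. The same range on chromosome 2 was 0.62 in fx1 and 0.44 in fx3. Within 0.25 of the chromosome median lay 60.3% of members in fx2, 41.5% in fx1 and 55.5% in fx3, and 56.7% of genes elsewhere lay as close to their own fx2 median. Within 0.5 lay 85.8% of members, against 81.3% elsewhere.

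**Figure D2:**
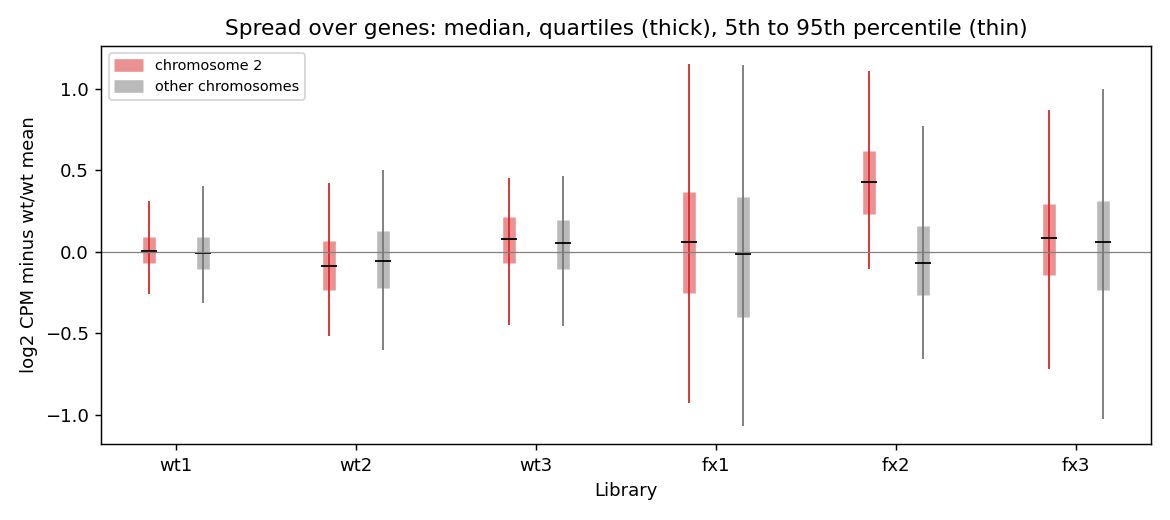
Spread over genes of log2 CPM minus the wt/wt mean (vertical axis) in each library (horizontal axis), for the 793 members and for other chromosomes. Black lines are medians, thick bars the quartiles and thin lines the 5th to 95th percentile, and in fx2 the whole bar of chromosome 2 is moved up from 0 with a quartile range of 0.39 against 0.42 elsewhere.

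Along the chromosome the increase ran from end to end. In all 33 bins of 5 Mb that held at least 5 members, the fx2 median was above 0, from 0.30 (15 to 20 Mb, 10 genes) to 0.73 (45 to 50 Mb, 5 genes), with an SD of 0.09 over bins. fx2 was the highest library in 32 of the 33 bins, and from 135 to 140 Mb (5 genes) fx3 was higher, at 0.44 against 0.38. In fx1 the bin median was above 0 in 21 bins and in fx3 in 28, with SDs over bins of 0.18 and 0.13. The longest unbroken run of members above 0 held 57 genes in fx2 and between 9 and 16 genes in each of the other 5 libraries. Among the first 10 members, from Fam171a1 to Phyh, 8 were above 0 in fx2 with a median of 0.38. Those at or below 0 were Frmd4a (-0.21) and Phyh (-0.06). All of the last 10 members, up to Polr3k, were above 0, with a median of 0.45 and values from 0.12 (Samd10) to 0.83 (Sox18).

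**Figure D3:**
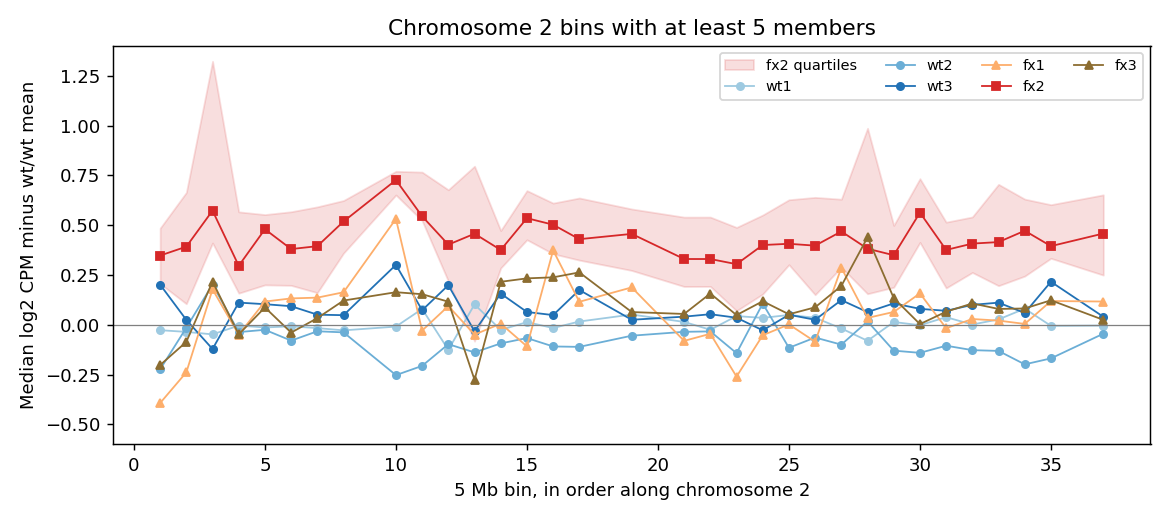
Median log2 CPM minus the wt/wt mean (vertical axis) in the 33 bins of 5 Mb with at least 5 members, in order along chromosome 2 (horizontal axis), for each library. The shaded band is the quartile range of fx2, whose bin medians stay between 0.30 and 0.73.

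The difference between chromosome 2 and the rest in fx2 was similar across levels, transcript GC and lengths, and varied more with the promoter. Members were divided into 3 groups of equal number by a property, and each group was set against genes elsewhere in the same range. By mean level the difference in fx2 was 0.49 in each of the 3 groups. By transcript GC it was 0.50, 0.48 and 0.48 from low to high, and by length of the longest transcript 0.48, 0.48 and 0.50 from short to long. By the CG content of the promoter (the ratio defined with the escaping genes, for 560 members) it was 0.40, 0.52 and 0.48 from low to high. Longer genes had higher fx2 values on chromosome 2 (medians of 0.34, 0.41 and 0.52), and also elsewhere (-0.14, -0.07 and 0.02). Thus the slope with length was shared by chromosome 2 and the other chromosomes. The 145 members whose wt/wt SD was under 0.1 log2, called steady here, had an fx2 median of 0.38 and a quartile range of 0.28, and 7 of them (4.83%) were at or below 0. Elsewhere, 1533 genes as steady had an fx2 median of -0.11, and 71.6% were at or below 0.

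Genes with steady wt/wt levels near the chromosome median show the shift in single genes. Swi5, a recombination repair factor, measured 125, 123 and 127 CPM in the wt/wt libraries (in the order wt1, wt2, wt3, as in all such sentences), against 143, 179 and 173 CPM in fx1, fx2 and fx3. Atf2 measured 88.3, 87.0 and 90.7 CPM in wt/wt, against 94.7, 127 and 112 CPM in fx1, fx2 and fx3. In both genes fx2 was the highest library and all fx/fx libraries were above wt/wt. Abi1, a subunit of the WAVE complex that starts actin branching downstream of Rac, measured 109, 109 and 113 CPM in wt/wt, against 131, 156 and 117 CPM in fx1, fx2 and fx3. Golga1 measured 60.9, 61.2 and 64.2 CPM in wt/wt, against 49.3, 86.4 and 43.1 CPM in fx1, fx2 and fx3. For Golga1 fx2 alone was above wt/wt, while the other fx/fx libraries were below. Vps39, a tether of late endosomes and lysosomes, measured 81.9, 79.0 and 83.7 CPM in wt/wt, 97.1 in fx1, 112 in fx2 and 80.8 in fx3. Polr3k, a subunit of RNA polymerase III, measured 88.4, 91.5 and 89.3 CPM in wt/wt, 58.2 in fx1, 128 in fx2 and 113 in fx3. Dstn, which takes apart actin filaments, was an exception in rank, since fx3 (502 CPM) lay above fx2 (489 CPM). Cstf1, a factor of mRNA 3′ end cleavage, measured between 39.1 and 41.1 CPM in wt/wt, against 38.9, 51.2 and 48.6 CPM in fx1, fx2 and fx3. These 8 members were chosen for an fx2 value within 0.1 of the chromosome median, so their likeness in fx2 was set by the choice.

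**Figure D4:**
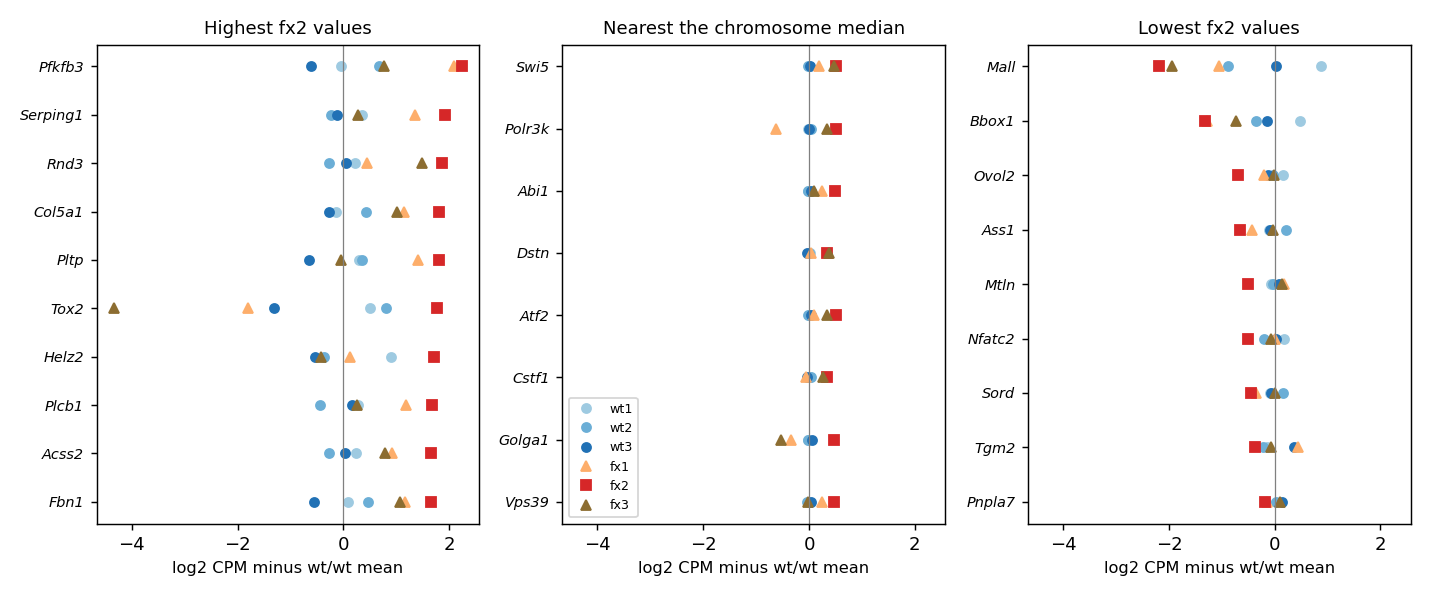
log2 CPM minus the wt/wt mean (horizontal axis) in each library for named members. The first panel holds the highest fx2 values among members for which fx2 was the highest library. The second holds members near the chromosome median with the steadiest wt/wt levels. The third holds low fx2 values among members for which fx2 was the lowest library. Libraries are coded by symbol and color. That fx2 is highest in the first panel, near 0.43 in the second and lowest in the third was set by this choice.

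Subunits of a shared complex, or proteins of a shared machinery, with genes on different chromosomes were set side by side as a description. The chromosome was picked for these fx2 values, so higher chromosome 2 subunits follow largely from the choice and test nothing. The 8 groups were put together after the data had been seen. All 44 subunits encoded on chromosome 2 lay above the wt/wt mean in fx2, as did 90.8% of all members. Of the proteasome, the 6 chromosome 2 members had an fx2 median of 0.29, from Adrm1 (0.16) to Psmb7 (0.57), and the 32 on other chromosomes had -0.09. Elsewhere 3 subunits reached the chromosome 2 median, namely Psmd1 on chromosome 1 (0.36) and the immunoproteasome subunits Psmb8 (1.42) and Psmb9 (1.29) on chromosome 17. For the respiratory chain and ATP synthase, Ndufs3 (0.67), Atp5c1 (0.65), Atp5g3 (0.57), Ndufa8 (0.55) and Atp5e (0.33) had a median of 0.57, against -0.07 for 71 subunits elsewhere, none of which reached it. The mitochondrial ribosomal proteins Mrps5 (0.66), Mrps2 (0.56), Mrps26 (0.44) and Mrpl41 (0.23) had a median of 0.50, and 73 elsewhere had -0.13.

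Splicing subunits showed the same order, with 6 on chromosome 2 at a median of 0.59, led by Prpf6 (0.77), Snrpb2 (0.67) and the helicase Snrnp200 (0.64), and 35 elsewhere at -0.06. RNA polymerase subunits Polr3k (0.52), Polr3f (0.39) and Polr1b (0.29) stood beside 23 elsewhere at -0.18. Cytosolic ribosomal proteins Rpl35 (0.40), Rpl7a (0.35), Rps21 (0.23) and Rpl12 (0.16) stood beside 75 elsewhere at -0.16, and their counts are less certain because these genes have near-identical pseudogene copies. In fx1 the same 4 ribosomal genes had a median of -0.92 and those elsewhere -0.89, so the groups did not separate there. For 12 mitotic proteins the fx2 median was 0.40, against -0.12 for 33 elsewhere. Among the 12 were the condensin subunit Ncaph (0.71), Bub1 (0.60), Bub1b (0.53) and Aurka (0.39, and 0.09 without wt3). These 12 had a median of -0.86 in fx1, and the 33 elsewhere -0.94. For replication proteins, Orc4 (0.73), Mcm8 (0.52), Pcna (0.38) and Mcm10 (0.20) had a median of 0.45, against -0.16 for 18 elsewhere. Some groups differed by chromosome in the other fx/fx libraries too, by less. In fx1 the chromosome 2 and other medians were 0.10 and -0.23 for the mitochondrial ribosome, 0.02 and -0.32 for splicing subunits and 0.09 and -0.11 for the respiratory chain and ATP synthase. In fx3 they were 0.40 and 0.13 for splicing subunits, 0.25 and -0.01 for RNA polymerases and 0.46 and 0.25 for the respiratory chain and ATP synthase. Chromosome 2 medians were below the others in fx3 for the proteasome, at 0.06 against 0.18.

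**Figure D5:**
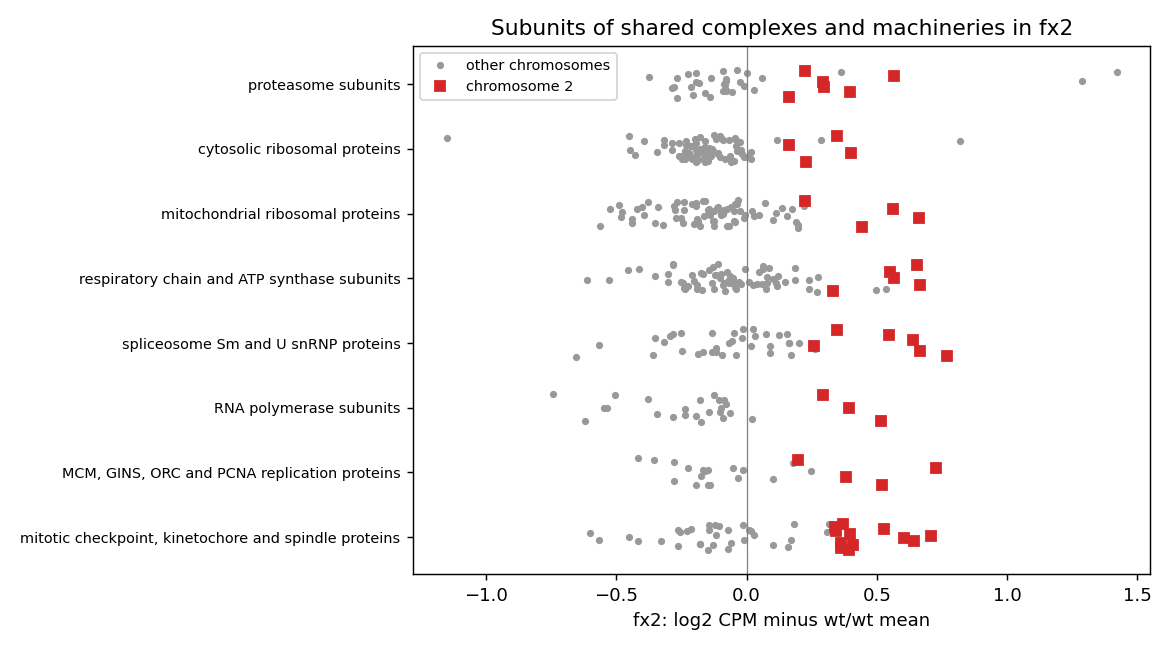
fx2 log2 CPM minus the wt/wt mean (horizontal axis) for single subunits of 8 complexes or machineries (vertical axis, with points spread for display), on chromosome 2 and on other chromosomes. All 44 chromosome 2 subunits lie above 0, as do 90.8% of all members, while the medians of the subunits elsewhere lie between -0.18 and -0.06.

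Grouped by role, housekeeping members followed the chromosome evenly. All 34 members for splicing, RNA processing and ribosomes were above 0 in fx2 (median 0.35), from Eif2ak4 (0.01, and -0.03 without wt1), a kinase that senses lack of amino acids, to Caprin1 (0.77), an RNA-granule protein. All 30 members for proteasome, folding and secretion were above 0 (median 0.42), from Tor1b (0.09) to the chaperone Hspa5 (0.83), and all 14 for oxidative phosphorylation (median 0.44). Of 30 transcription and chromatin members 29 were above 0 (median 0.50), with the homeobox gene Pbx3 at 1.38 and the retinoid receptor Rxra at -0.01. Of 33 cell division and replication members 32 were above 0 (median 0.41), from Cdca7 (-0.07), a Myc-responsive factor of dividing cells, to Rif1 (0.78), a regulator of replication timing. In fx1 the same 33 had a median of -0.65 with 6 above 0, and in fx3 0.19 with 27 above 0. Over all members the share above 0 in fx2 was 90.8% and the median 0.43, so these lists lay close to the whole chromosome. The 4 imprinted members, among them Blcap (0.83), Gatm (0.37, and 0.14 without wt3) and Gnas (0.43), were all above 0. Metabolism and apoptosis lists were less even. Of 28 lipid, sugar and amino acid metabolism members 22 were above 0 (median 0.39), from Ass1 (-0.66) to Pfkfb3 (2.24). Of 10 apoptosis and p53 members 7 were above 0 (median 0.41), from Ddb2 (-0.14, and 0.21 without wt2) to Trp53inp2 (1.31).

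Signalling and cell identity genes were described in 3 further lists. Of 27 kinases, phosphatases and adaptors 23 were above 0 (median 0.43), from Traf1 (-2.98), a signalling adaptor at TNF receptors, to Ptpn1 (0.87), a tyrosine phosphatase that acts on the insulin receptor. Src, a kinase at focal adhesions, measured 153, 135 and 133 CPM in wt/wt, against 186, 238 and 145 CPM in fx1, fx2 and fx3, so that fx2 was highest and fx3 lay within wt/wt. Of 12 luminal epithelial and alveolar members 10 were above 0 (median 0.35). The transcription factors of that list ran in fx2 from Ovol2 (-0.69), Tfap2c (-0.04), Ehf (0.06), Gata3 (0.09) and Elf5 (0.19) to Zfp217 (0.66) and Creb3l1 (0.76), and Spint1, a protease inhibitor, was the highest of all at 0.98. Tfap2c, Zfp217 and Creb3l1 were added after their values were seen. With a wt/wt library left out of the reference, Ehf ranged from -0.11 (without wt3) to 0.24 (without wt1) and Elf5 from 0.10 to 0.29. Elf5, which drives alveolar differentiation, measured 343, 292 and 263 CPM in wt/wt, against 148, 340 and 302 CPM in fx1, fx2 and fx3. Gata3, which maintains luminal cells, measured 288, 268 and 254 CPM in wt/wt, against 162, 287 and 239 CPM in fx1, fx2 and fx3. For both, fx2 fell inside the wt/wt range and fx1 was the lowest. The 3 Notch pathway members were Notch1 (0.16, and -0.01 without wt3), the fucosyltransferase Pofut1 (0.24) and the ligand Dll4 (0.10, and -0.05 without wt2).

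The mesenchymal, endothelial, immune and TGF-beta lists had fx2 medians above that of the chromosome, and the integrin and adhesion list did not. The 8 mesenchymal and matrix members had an fx2 median of 1.08, with 7 above 0, but also medians of 1.25 in fx1 and 1.04 in fx3. Vim, the intermediate filament of mesenchymal cells, measured 57.5, 114 and 71.4 CPM in wt/wt, against 197, 198 and 117 CPM in fx1, fx2 and fx3. Thbs1, a matrix glycoprotein that activates TGF-beta, measured 375, 624 and 331 CPM in wt/wt, against 1562, 815 and 1049 CPM in fx1, fx2 and fx3. All fx/fx libraries were above wt/wt for both genes, and fx2 was not apart from the other fx/fx libraries. The 6 endothelial members had an fx2 median of 0.79, with 0.86 in fx1 and -0.17 in fx3. In fx2, 5 of them were above 0, from Calcrl (-0.06, and 0.04 without wt3) to Eng (0.92), a TGF-beta co-receptor. The 7 TGF-beta and BMP pathway members were all above 0 in fx2 (median 0.92), from Pmepa1 (0.35, and 0.09 without wt2) to Tgif2 (1.58). Their median was as high in fx1 (0.93) and lower in fx3 (0.25). This list shares Thbs1 and Zeb2 (0.92, and 0.66 without wt3) with the mesenchymal list and Eng with the endothelial list, so the lists are not separate observations. The 14 integrin and adhesion members had an fx2 median of 0.42, close to the 0.43 of all members, with 12 above 0. Among the 14 were Gsn (1.33), which severs actin filaments, Itga6 (0.53), Cd44 (0.43) and Itgb6 (-0.34). The 18 immune members had an fx2 median of 0.71, with 14 above 0, 4 at or below 0 and Dpp4 the lowest (-1.43). Their medians were -0.15 in fx1 and -0.45 in fx3. Among them B2m, the light chain of MHC class I, measured 4799, 443 and 702 CPM in wt/wt, against 836, 4481 and 1342 CPM in fx1, fx2 and fx3, so wt1 and fx2 were both high and the groups overlapped.

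Of the 8 marker lists for other cell types, some were higher in fx/fx or in fx2 and others were not. Summed over 12 of 12 fibroblast markers, levels were between 337 and 580 CPM in wt/wt, against 1106, 1654 and 891 CPM in fx1, fx2 and fx3, with fx2 highest for 9 of the 12. Adipocyte markers summed to between 36.3 and 113 CPM in wt/wt and 149.5, 484 and 192 CPM in fx/fx, with fx2 highest for 12 of 12. Macrophage markers summed to between 492 and 574 CPM in wt/wt and 628, 749 and 332 CPM in fx/fx, and endothelial markers to between 122 and 153 CPM in wt/wt and 289, 259 and 149 CPM in fx/fx. Skeletal muscle markers summed to 39.8 CPM in fx2 and at most 11.8 CPM in the other libraries, with fx2 highest for 7 of 8. Erythroid markers summed to between 119 and 297 CPM in wt/wt and between 536 and 628 CPM in fx/fx. Mast cell markers summed to 736 CPM in fx2 and between 622 and 1382 CPM in wt/wt, and T and B cell markers to 12.4 CPM in fx2 and between 6.94 and 16.9 CPM in wt/wt, so fx2 lay within wt/wt for both. No marker of these lists was at 0 in all libraries. In such bulk samples more cells of a type and more RNA per cell cannot be told apart. Without the mesenchymal, endothelial and immune list members, the fx2 median of the remaining 761 of 793 members was 0.42. With so few members left out this median could move little, and a part of such cells in the shift was not tested.

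Beyond the shift lay 20 members with an fx2 value over 1 above the chromosome median, and fx2 was the highest library for 13 of them (1.64% of members, against 0.731% of all expressed protein-coding genes). Measured from its own median in fx2, the rest of the genome had slightly more such genes, at 3.65% against 2.52% of members. Pfkfb3, which makes the activator of glycolysis fructose 2,6-bisphosphate, measured 10.9, 18.0 and 7.32 CPM in wt/wt, against 48.1, 53.4 and 19.1 CPM in fx1, fx2 and fx3. Acss2, which turns acetate into acetyl-CoA, measured 17.0, 12.1 and 14.8 CPM in wt/wt, against 27.6, 46.1 and 25.1 CPM in fx1, fx2 and fx3. Both were above wt/wt in all fx/fx libraries, with fx2 highest. Col5a1 measured 15.7, 23.3 and 14.3 CPM in wt/wt, against 38.8, 61.0 and 35.2 CPM in fx1, fx2 and fx3. Fbn1, the microfibril protein fibrillin-1, measured 26.3, 33.8 and 16.8 CPM in wt/wt, against 55.1, 77.8 and 51.7 CPM in fx1, fx2 and fx3. These 2 matrix genes also separated the genotypes, beside the fibroblast marker sums given above, whose part in these values was not tested. Rnd3 measured 10.4, 7.46 and 9.32 CPM in wt/wt, against 12.3, 33.0 and 25.3 CPM in fx1, fx2 and fx3, with fx2 highest and fx3 next.

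Other members beyond the shift were high in fx2 and not in every fx/fx library. Serping1, the C1 inhibitor of complement, measured 21.9, 14.7 and 16.0 CPM in wt/wt, against 44.3, 65.2 and 20.8 CPM in fx1, fx2 and fx3, so fx3 fell within wt/wt. Tox2, an HMG-box factor, measured 46.9, 57.8 and 13.4 CPM in wt/wt, against 9.45, 112.5 and 1.601 CPM in fx1, fx2 and fx3. Helz2, a helicase known as an interferon-stimulated gene, measured 60.3, 25.1 and 22.2 CPM in wt/wt, against 35.0, 105 and 23.9 CPM in fx1, fx2 and fx3. For Tox2 and Helz2 fx2 was apart from the other fx/fx libraries, which lay within or below wt/wt. The lipid carrier Pltp (1.80), the phospholipase Plcb1 (1.68), Tgif2 (1.58), the acyltransferase Lpcat4 (1.56) and the macrophage mannose receptor Mrc1 (1.43) completed the 13. Another 7 members lay as far above the chromosome median with fx2 not the highest: St8sia6, Aif1l, B2m, Lmx1b, Shc4, Ak1 and Itih5. Ak1, an adenylate kinase, measured 8.97, 12.8 and 20.8 CPM in wt/wt, against 312, 38.5 and 299.8 CPM in fx1, fx2 and fx3, so fx2 was the lowest of the fx/fx libraries. Of the 13 members with fx2 highest, 8 were also above the wt/wt mean in fx1 and fx3.

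The shift was escaped by 73 members (9.21%), whose fx2 value was 0 or less, against 54.8% of all expressed protein-coding genes. They were spread over 24 bins of 5 Mb, with at most 9 in 1 bin. As far below their own fx2 median lay 10.01% of genes on other chromosomes, a similar share. In 47 of the 73, fx1 and fx3 were also at or below the wt/wt mean. fx2 was the lowest of all 6 libraries in 12, among them Mall, Bbox1, Ovol2, Ass1, Mtln, Nfatc2, Sord, Tgm2, Pnpla7, Pxmp4 and Cd59a.

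Mall, a membrane raft proteolipid, measured 44.2, 13 and 24.6 CPM in wt/wt, against 11.7, 5.30 and 6.31 CPM in fx1, fx2 and fx3. Bbox1, the last enzyme of carnitine synthesis, measured 22, 12.4 and 14.3 CPM in wt/wt, against 6.44, 6.29 and 9.44 CPM in fx1, fx2 and fx3. Both were below wt/wt in every fx/fx library. Ass1, the argininosuccinate synthase of arginine synthesis, measured 119, 149 and 121 CPM in wt/wt, against 95.4, 81.8 and 126 CPM in fx1, fx2 and fx3. Ovol2, a zinc finger factor of epithelial identity, measured 10.9, 9.63 and 8.97 CPM in wt/wt, against 8.55, 6.05 and 9.75 CPM in fx1, fx2 and fx3. In these genes fx3 overlapped wt/wt and fx2 was the lowest. Mtln measured 24.8, 25.4 and 27.5 CPM in wt/wt, against 29.2, 18.2 and 28.4 CPM in fx1, fx2 and fx3, so fx2 alone was below wt/wt. Nfatc2, a calcium-responsive transcription factor, measured 26.3, 20.3 and 23.8 CPM in wt/wt, against 23.3, 16.5 and 22.2 CPM in fx1, fx2 and fx3. Tgm2, a protein crosslinking enzyme, measured 195, 187 and 279.8 CPM in wt/wt, against 295, 167 and 208 CPM in fx1, fx2 and fx3. Sord, which oxidizes sorbitol to fructose, and Pnpla7 had fx2 values of -0.45 and -0.19. Their fx2 levels of 39.3 and 50.1 CPM lay just under the fx1 levels of 42.2 and 51.4 CPM.

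Of the 145 steady members, 7 were at or below 0 in fx2, among them Phf19 (-0.99), Mtln (-0.50), Gca (-0.08), Naif1 (-0.07), Cd59a (-0.07) and Fahd2a (-0.01). Phf19, an accessory protein of the Polycomb complex PRC2, measured 22.3, 21.2 and 19.5 CPM in wt/wt, against 6.02, 10.6 and 9.17 CPM in fx1, fx2 and fx3. All fx/fx libraries were below wt/wt, and fx2 was the highest of them.

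Members that escaped had fewer CG dinucleotides in their promoters. The measure was the observed number of CG over that expected from the C and G content of the 250 bases before the start, for the 560 members with exactly 1 promoter entry. Its median was 0.53 in 49 escaping members and 0.79 in 511 other members, with quartiles of 0.41 to 0.75 and 0.64 to 0.93. Of 187 members with the lowest values 34 escaped (18.2%), of the 186 in the middle 10 (5.38%), and of the 187 with the highest 5 (2.67%). The fx2 medians of these groups were 0.31, 0.45 and 0.44. Genes on other chromosomes showed the same order, with 13.6%, 8.26% and 5.34% as far below their own median. Among the printed windows the ratio was 0.34 for Pnpla7 and 0.79 for Mtln, against 0.85 for Atf2 and 1.06 for Golga1. Mtln thus escaped with a ratio at the median of other members. Rnd3 (0.71) and Col5a1 (0.77), far above the shift, had lower ratios than Mtln. Short motifs were also looked up in these 560 windows and in all 32851 promoter entries, which were not limited to expressed genes or to 1 entry per gene. The shares below thus compare unlike sets, and expressed genes elsewhere were not set beside them. The letters GGGCGG were in 62.5% of members' windows and in 32.7% of all promoter windows of this length. The fx2 medians of members with and without them were 0.41 and 0.40. CCAAT was in 34.8% of members' and 33.9% of all windows, with fx2 medians of 0.43 with it and 0.40 without. TATAAA was in 4.11% of members' and 12.4% of all windows, with fx2 medians of 0.45 and 0.41. All 3 were searched on both strands, none contains another, and the matches describe letters in a window only.

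The comparison of the genotypes, which asks how tumor expression differs when CdGAP can be deleted, called no chromosome 2 member in edgeR. The quasi-likelihood test with Benjamini-Hochberg adjustment over 16752 genes gave 0 of 793 members higher and 0 lower at an adjusted p under 0.05 (0% of all genes in each direction), and limma-voom also gave 0. At an unadjusted p under 0.05, edgeR had 104 members higher in fx/fx (13.1%, against 8.18% of all genes) and 11 lower (1.39%, against 6.04%). The fx/fx and wt/wt libraries did not overlap for 161 members higher in fx/fx (20.3%, against 9.74%) and 14 lower (1.77%, against 9.93%). These counts contain fx2 and so contain the values by which the chromosome was chosen. Leaving fx2 out, edgeR had 79 members higher at an unadjusted p under 0.05 (9.96%, against 8.96%) and 42 lower (5.30%, against 8.79%). At an adjusted p under 0.05 without fx2, edgeR called 0 members higher (against 0.0116% of all genes) and 0 lower (0%). The members' median log2 fold change was 0.20 with 6 libraries, 0.07 without fx2, 0.25 without fx1 and 0.26 without fx3. DESeq2 called 32 members higher (4.04%, against 3.01% of all genes) and 8 lower (1.01%, against 1.95%), or 32 higher (4.39% of all genes) and 25 lower (5.89%) without fx2. Among the 32 higher, fx2 was the highest library in 8, and 8 of the 32 and 4 of the 8 lower kept the call whichever library was left out.

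In the 10 members with the smallest p, 5 in each direction, fx2 was neither the highest nor the lowest of the 6 libraries. Smox, which oxidizes the polyamine spermine, measured 25.7, 19.8 and 20 CPM in wt/wt, against 44.0, 48.3 and 54 CPM in fx1, fx2 and fx3 (log2 fold change 1.16, SE 0.19, edgeR adjusted p = 0.153). Agps, an enzyme of ether lipid synthesis in peroxisomes, measured 94.1, 113 and 94.2 CPM in wt/wt and 179, 177 and 185 CPM in fx/fx (0.84, SE 0.16, edgeR adjusted p = 0.153). Both groups were apart in these genes, with fx2 between the other fx/fx libraries or close to them. St8sia6, a sialyltransferase, measured 12.7, 46.5 and 10.8 CPM in wt/wt and 421, 229.5 and 239 CPM in fx/fx. Itgav, the integrin alpha V chain, measured 113, 93.3 and 125 CPM in wt/wt, against 385, 204 and 299 CPM in fx1, fx2 and fx3, with fx2 the lowest in fx/fx. Col9a3, a collagen IX chain, had a log2 fold change of 1.76 (SE 0.30), with 278, 163 and 289 CPM in fx/fx.

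Lower in fx/fx were Entpd2, Traf1, Phf19, Dpp4 and Map3k20, each without overlap and none past the edgeR threshold. Entpd2, which degrades extracellular nucleotides, measured 51.1, 44.9 and 44.5 CPM in wt/wt and 20.5, 16.6 and 15.5 CPM in fx/fx (log2 fold change -1.42, SE 0.19, edgeR adjusted p = 0.153). Traf1 measured 74.4, 37.8 and 55.5 CPM in wt/wt and 9.69, 6.78 and 2.21 CPM in fx/fx. Dpp4, a membrane peptidase, measured 58.0, 41.4 and 65.3 CPM in wt/wt and 8.43, 19.9 and 22.2 CPM in fx/fx. For Map3k20, a stress-responsive MAP kinase kinase kinase, the log2 fold change was -1.13 (SE 0.28). DESeq2 called all 10 members named here by smallest p, with adjusted p from 1.1e-07 (St8sia6) to 0.0151 (Map3k20). With no low-count filter, edgeR called Col9a3, Itgav and Entpd2, 2 members higher (0.252%, against 0.0779% of all genes) and 1 lower (0.126%, against 0.0508%), at adjusted p of 0.0356, 0.0477 and 0.0358.

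Protein-coding genes of chromosome 2 below the minimum were also high in fx2. Those 125 that code for proteins and had a mean log2 CPM of 1 to 3 showed an fx2 median of 0.52, against 0.15 for 1694 such genes elsewhere. Their medians were 0.20 in fx1 and -0.04 in fx3, against 0.19 and -0.01 elsewhere. The 114 with -1 to 1 had 0.72 in fx2, against 0.30 elsewhere. These 114 were also higher in fx1 (0.53 against 0.31) and fx3 (0.10 against -0.03), by less. The 37 lncRNA genes with a mean over 1 had 0.08, against -0.35 for 425 elsewhere, but they were about as far above the others in fx1 (0.16 against -0.23) and fx3 (0.16 against -0.15). The 21 processed pseudogenes had a median of -0.00, against -0.07 for 246 elsewhere, and showed little difference. A further 471 protein-coding genes of the chromosome had 0 counts in all libraries. Sfmbt2, a Polycomb group gene of chromosome 2 below the minimum, measured 5.83, 5.03 and 8.21 CPM in wt/wt, against 1.21, 0.214 and 0.170 CPM in fx1, fx2 and fx3, so it was low in every fx/fx library. Snai1, a repressor of epithelial genes, measured 1.35, 1.83 and 1.20 CPM in wt/wt, against 3.05, 3.67 and 1.82 CPM in fx1, fx2 and fx3.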

How the data were processed

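The deposited files held raw counts (read pairs assigned to each gene), made by the authors with featureCounts 1.6.0 per the file headers, on GRCm38 with Ensembl release 93 and strand option 2. The submitters' processing notes name featureCounts 1.4.6 instead, with FastQC 0.11.5, STAR 2.5.1b, DESeq2 1.12.3 and DESeq. Of 54232 identifiers, 54165 matched GENCODE M21 symbols and types, and 0 rows lacked a gene. Values are log2 CPM (edgeR 4.0.16 in R 4.3.3, TMM, prior count 2) minus the mean of the 3 wt/wt libraries. Genotypes were compared by edgeR's 2-sided quasi-likelihood test after filterByExpr, genotype only, with Benjamini-Hochberg adjustment, and by DESeq2 1.42.0 and limma-voom (limma 3.58.1) as alternatives. The steps were tested on simulated data. Promoters came from RefSeq, with an entry for 706 of 793 members.

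The members, the 16 role lists and the 9 marker lists were chosen with earlier results of these data known. Some genes, such as Creb3l1, Dll4 and Gatm, are in more than 1 role list. Named genes were the 10 highest and the 10 lowest members with fx2 as the extreme library, the 8 steadiest near the median, the 5 with the smallest edgeR p in each direction, the extremes of each list and 25 genes chosen for their role. Predicted genes were skipped, and 1 gene that the rule names is not reported here. Total counts of 36732137 to 53606276 per library put 3 counts, the upper limit a count of 0 allows, at 0.056 to 0.0817 CPM, which covers counting error only.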

Additional observations from a re-analysis of the deposited data

How the results depend on the processing

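The fx2 median of the members ran from 0.37 (without wt2 in the reference) to 0.47 (TMM factors from other chromosomes) and was 0.38 in the 145 steady members. The share above the wt/wt mean ran from 89.4% to 93.4%. All bins had a median above 0 with a width of 10 Mb (19 bins) or 20 Mb (10 bins). Members beyond the shift with fx2 highest numbered 21 with a mean log2 CPM over 1 and 2 with a mean over 5, where 35 members escaped, the number of genes having changed with the minimum. The genotype comparison called 0 members with edgeR, 3 without the filter on low counts and 40 with DESeq2, the cause of the difference not having been tested. With DESeq2 and a library left out, chosen after seeing the data, it called 15 without wt1, 28 without wt2 and 28 without wt3. The counts were 26 without fx1, 57 without fx2 and 56 without fx3. Without fx2, 4.04% of members were called higher, against 4.39% of all genes, and 3.15% lower, against 5.89%. For the other left-out libraries the share over all genes was not taken, so those counts give no result about the members. The fit with replicate number as a replicate block also called 0. Deviations from the group mean had r of -0.09, -0.09 and 0.06 between same-numbered libraries. Between differently numbered libraries r ran from -0.22 (wt1 and fx3) to 0.28 (wt1 and fx2). With 3 libraries per group these values cannot show whether the numbers pair libraries. Of 880 recomputed fx2 values of 77 named members, 875 stayed within the wt/wt SD. That SD is wide for genes with uneven wt/wt levels. With 1 wt/wt library left out of the reference, the sign of the fx2 value changed for 7 of the 77 (Calcrl 0.04 and Ehf -0.11 without wt3, Ddb2 0.21 and Dll4 -0.05 without wt2, Eif2ak4 -0.03 and Rxra 0.12 without wt1, Notch1 -0.01 without wt3), and 15 others moved by over 1.5 times. Among these were B2m (1.97, or 3.01 without wt1 and 1.29 without wt2), Tox2 (1.11 without wt3), Hspa5 (0.51 without wt3), Cd44 (0.25 without wt3) and Tgm2 (-0.19 without wt3). The increase rests on a single library, and these counts cannot show whether another tumor would have it.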
